A study of Mus musculus with 8 samples.

Results

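The primary granule and granulocyte progenitor genes described here are 9 mouse genes: Elane, Mpo, Prtn3, Ctsg and Ms4a3, called the granule genes below, and the transcription factor genes Cebpa, Cebpe, Gfi1 and Spi1. Each was chosen by name and read from the 1 array probe whose transcript belongs to it, so they are 9 of the 20656 genes with a named probe. All 9 probes were well above background on all 8 arrays. Primary, or azurophil, granules are made while a granulocyte-monocyte progenitor becomes a promyelocyte, and transcripts for their proteases and peroxidase appear there before those of the later granules of maturing neutrophils. Cebpa and Spi1, which encodes PU.1, open the granulocyte and monocyte fates, Gfi1 favours neutrophils over monocytes, and Cebpe acts as promyelocytes mature. RUNX1, MYB, PU.1 and C/EBP proteins are known regulators of Mpo and Elane.

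RNA came from LSK cells of C57BL/6 background mice, which are marrow cells sorted for c-Kit and Sca-1 and against lineage markers and include stem cells beside early progenitors, and was read on 1-colour Agilent arrays with 1 array per group. Donor CD45.2 stem cells carried an inducible Cre-ERT with floxed or wild-type Ezh2, the methyltransferase of Polycomb repressive complex 2, received a retrovirus with RUNX1S291fs or an empty one, and were grafted with CD45.1 wild-type marrow into irradiated mice. The CD45.2 groups with a lesion were Ezh2Δ/Δ, RUNX1S291fs and RUNX1S291fs/Ezh2Δ/Δ at month 4, and RUNX1S291fs/Ezh2Δ/Δ-MDS and RUNX1S291fs/Ezh2Δ/Δ-MDS/ML from moribund mice with myelodysplastic syndrome (MDS) without or with myeloid leukemia, whose age the labels leave out. Wild-type CD45.1 competitor cells taken at month 4 from RUNX1S291fs and from RUNX1S291fs/Ezh2Δ/Δ recipients are called CD45.1 in RUNX1S291fs and CD45.1 in RUNX1S291fs/Ezh2Δ/Δ, and WT is the month 4 CD45.2 group with neither lesion. The month 4 RNA was from pooled cells of 2 to 4 mice and each moribund array was from 1 mouse, every cell had passed through a transplant, and the retrovirus adds RUNX1S291fs to the cell's own Runx1 rather than changing that gene. No group has a second array.

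A level is a probe's log2 processed signal relative to the 75th percentile on its array, and a difference or effect is a log2 value between levels of the same probe. Probes well above background made up 43.9% (CD45.1 in RUNX1S291fs) to 55.3% (WT) of an array. Kit, the c-Kit gene of the sort, lay at 4.06 to 5.11 on the 8 arrays, whereas Ly6a, the Sca-1 gene, was at 0.53 on RUNX1S291fs/Ezh2Δ/Δ-MDS and 1.18 on RUNX1S291fs/Ezh2Δ/Δ-MDS/ML, against 3.17 to 4.14 on the 6 month 4 arrays. The Ezh2 probe gave 3.10 to 4.01, and whether it reads the floxed exons is unknown here, so it checks nothing. Y-linked Ddx3y and Eif2s3y were well above background, and Xist was not, on Ezh2Δ/Δ and RUNX1S291fs/Ezh2Δ/Δ-MDS/ML alone, so the sex of the cells cannot be told apart from genotype or stage in comparisons with those arrays. RUNX1S291fs/Ezh2Δ/Δ, RUNX1S291fs/Ezh2Δ/Δ-MDS and WT shared slide 1, Ezh2Δ/Δ, RUNX1S291fs and both CD45.1 arrays slide 2, and RUNX1S291fs/Ezh2Δ/Δ-MDS/ML lay alone on slide 3.

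The 250 bases before the transcription start of the 5 granule genes are shown because these genes shared most of their order across the arrays. The sequences are RefSeq's in build GRCm38.p6, printed 5′ to 3′ on the gene's strand, and capitals mark the letters GAGGAA, the core of PU.1 sites, which this window of each gene was searched for on both strands. Elane lies at chr10:79886062-79886311 on the plus strand, Prtn3, its neighbour on that chromosome, at chr10:79879417-79879666 on the plus strand, Mpo at chr11:87793534-87793783 on the plus strand, Ctsg at chr14:56102575-56102824 on the minus strand and Ms4a3 at chr19:11640852-11641101 on the minus strand.
Elane: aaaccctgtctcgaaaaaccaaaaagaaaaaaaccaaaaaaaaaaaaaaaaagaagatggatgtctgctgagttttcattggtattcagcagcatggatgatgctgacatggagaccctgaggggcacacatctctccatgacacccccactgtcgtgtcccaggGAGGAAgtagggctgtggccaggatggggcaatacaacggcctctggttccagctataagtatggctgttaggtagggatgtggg
Prtn3: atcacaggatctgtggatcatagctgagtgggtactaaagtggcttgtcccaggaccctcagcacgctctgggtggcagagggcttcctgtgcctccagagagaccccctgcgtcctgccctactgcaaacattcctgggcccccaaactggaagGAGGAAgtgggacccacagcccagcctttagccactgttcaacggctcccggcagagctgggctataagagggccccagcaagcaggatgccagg
Mpo: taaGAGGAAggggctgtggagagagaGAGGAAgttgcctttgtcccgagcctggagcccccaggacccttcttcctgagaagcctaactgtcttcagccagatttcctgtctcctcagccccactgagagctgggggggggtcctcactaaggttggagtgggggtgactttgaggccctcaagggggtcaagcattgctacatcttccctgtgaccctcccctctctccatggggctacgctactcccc
Ctsg: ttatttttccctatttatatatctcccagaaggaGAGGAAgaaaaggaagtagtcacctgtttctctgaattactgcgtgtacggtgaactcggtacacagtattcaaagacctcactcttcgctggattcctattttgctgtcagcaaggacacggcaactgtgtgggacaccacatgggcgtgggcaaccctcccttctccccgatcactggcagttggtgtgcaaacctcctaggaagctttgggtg
Ms4a3: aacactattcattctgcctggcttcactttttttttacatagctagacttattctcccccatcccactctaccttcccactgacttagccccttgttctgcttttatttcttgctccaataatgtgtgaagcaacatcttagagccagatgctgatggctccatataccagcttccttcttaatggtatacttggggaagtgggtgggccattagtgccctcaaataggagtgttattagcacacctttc

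GAGGAA or its reverse complement TTCCTC stood in 4 of these 5 windows, against 23.3% of 32851 promoter windows of that length. The match lay 85 to 80 bases before the start in Elane, 95 to 90 in Prtn3, 216 to 211 in Ctsg, and 247 to 242 and 224 to 219 in Mpo. Ms4a3 had none. The MYB letters AACNG were in 4 of 5 (74.2% of all windows), the RUNX letters TGTGGT in 1 of 5, Ctsg, at 79 to 74 bases (14.0%), and the C/EBP letters TTGCNNAA (9.56%) and the GFI1 letters AATCAC (9.14%) in 0 of 5, each searched on both strands. No match of one motif shared bases with a match of another in these windows. Promoters of Cebpa and Gfi1 were matched in the same table, with no GAGGAA, and Cebpe and Spi1 were not.

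Elane encodes neutrophil elastase, a serine protease of primary granules, and had the widest range of the 9 genes. Its level was 2.94 on Ezh2Δ/Δ, 4.43 on RUNX1S291fs, 8.81 on RUNX1S291fs/Ezh2Δ/Δ, 3.32 on RUNX1S291fs/Ezh2Δ/Δ-MDS, 1.15 on RUNX1S291fs/Ezh2Δ/Δ-MDS/ML, 7.30 on CD45.1 in RUNX1S291fs, 4.80 on CD45.1 in RUNX1S291fs/Ezh2Δ/Δ and 2.83 on WT. The highest and lowest arrays were thus both of RUNX1S291fs/Ezh2Δ/Δ cells, from pooled month 4 mice and from a moribund mouse, 203-fold apart. These arrays also differ in slide and in the sex of the cells, as given above. The 3 wild-type arrays spanned 4.48, and only RUNX1S291fs/Ezh2Δ/Δ lay above them and only RUNX1S291fs/Ezh2Δ/Δ-MDS/ML below.

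Prtn3, the proteinase 3 gene, gave 3.74 on Ezh2Δ/Δ, 5.0 on RUNX1S291fs, 8.0 on RUNX1S291fs/Ezh2Δ/Δ, 3.06 on RUNX1S291fs/Ezh2Δ/Δ-MDS, 0.91 on RUNX1S291fs/Ezh2Δ/Δ-MDS/ML, 6.87 on CD45.1 in RUNX1S291fs, 5.17 on CD45.1 in RUNX1S291fs/Ezh2Δ/Δ and 4.20 on WT. Ctsg encodes cathepsin G, a further serine protease of these granules. It gave 6.89 on Ezh2Δ/Δ, 8.13 on RUNX1S291fs, 10.49 on RUNX1S291fs/Ezh2Δ/Δ, 6.80 on RUNX1S291fs/Ezh2Δ/Δ-MDS, 4.03 on RUNX1S291fs/Ezh2Δ/Δ-MDS/ML, 10.02 on CD45.1 in RUNX1S291fs, 8.23 on CD45.1 in RUNX1S291fs/Ezh2Δ/Δ and 7.19 on WT. For both genes RUNX1S291fs/Ezh2Δ/Δ was highest, RUNX1S291fs/Ezh2Δ/Δ-MDS/ML lowest, and Ezh2Δ/Δ and both moribund arrays lay below all 3 wild-type arrays.

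Mpo, the myeloperoxidase gene, had 8.07 on Ezh2Δ/Δ, 8.83 on RUNX1S291fs, 10.65 on RUNX1S291fs/Ezh2Δ/Δ, 8.03 on RUNX1S291fs/Ezh2Δ/Δ-MDS, 6.14 on RUNX1S291fs/Ezh2Δ/Δ-MDS/ML, 10.52 on CD45.1 in RUNX1S291fs, 9.20 on CD45.1 in RUNX1S291fs/Ezh2Δ/Δ and 8.49 on WT. Its range was 22.8-fold, the narrowest of the granule genes, and RUNX1S291fs/Ezh2Δ/Δ exceeded CD45.1 in RUNX1S291fs by little. Ms4a3, a membrane protein gene that marks granulocyte-monocyte progenitors, gave 1.62 on Ezh2Δ/Δ, 4.86 on RUNX1S291fs, 8.29 on RUNX1S291fs/Ezh2Δ/Δ, 2.93 on RUNX1S291fs/Ezh2Δ/Δ-MDS, 2.45 on RUNX1S291fs/Ezh2Δ/Δ-MDS/ML, 7.53 on CD45.1 in RUNX1S291fs, 4.87 on CD45.1 in RUNX1S291fs/Ezh2Δ/Δ and 2.82 on WT. It was the 1 granule gene with its lowest level on Ezh2Δ/Δ.

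The 5 granule genes shared 1 order at the top: RUNX1S291fs/Ezh2Δ/Δ, then CD45.1 in RUNX1S291fs, CD45.1 in RUNX1S291fs/Ezh2Δ/Δ and RUNX1S291fs. Their mean level was 4.65 on Ezh2Δ/Δ, 6.25 on RUNX1S291fs, 9.25 on RUNX1S291fs/Ezh2Δ/Δ, 4.83 on RUNX1S291fs/Ezh2Δ/Δ-MDS, 2.94 on RUNX1S291fs/Ezh2Δ/Δ-MDS/ML, 8.45 on CD45.1 in RUNX1S291fs, 6.45 on CD45.1 in RUNX1S291fs/Ezh2Δ/Δ and 5.10 on WT. The wild-type arrays therefore differed widely among themselves, with an SD over the 3 of 2.24 for Elane, 2.36 for Ms4a3, 1.43 for Ctsg, 1.35 for Prtn3 and 1.03 for Mpo. In bulk RNA, fewer cells of a type and less RNA per cell cannot be told apart.

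**Figure D1:**
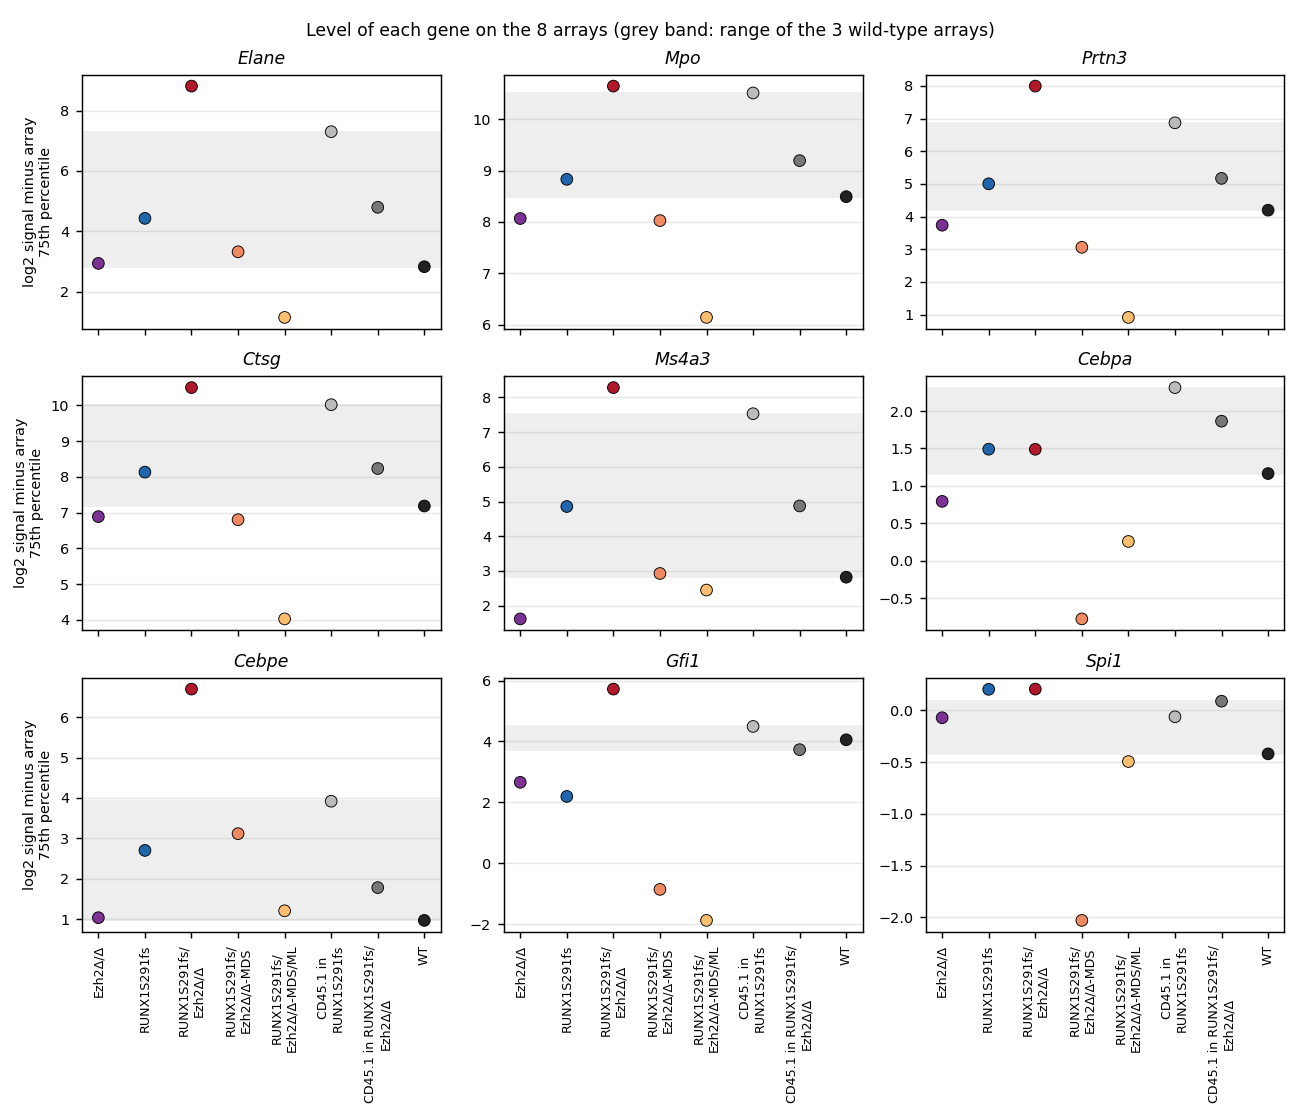
Level of each of the 9 genes (log2 signal minus the array's 75th percentile, y axis, own scale per panel) on the 8 arrays (x axis), 1 point per array, with a grey band for the range of the 3 wild-type arrays. The RUNX1S291fs/Ezh2Δ/Δ point is the highest in 8 panels, Cebpa being the exception, and Elane is at 8.81 on RUNX1S291fs/Ezh2Δ/Δ and 1.15 on RUNX1S291fs/Ezh2Δ/Δ-MDS/ML.

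The 4 transcription factor genes did not follow 1 pattern. Cebpe gave 1.04 on Ezh2Δ/Δ, 2.70 on RUNX1S291fs, 6.69 on RUNX1S291fs/Ezh2Δ/Δ, 3.12 on RUNX1S291fs/Ezh2Δ/Δ-MDS, 1.21 on RUNX1S291fs/Ezh2Δ/Δ-MDS/ML, 3.92 on CD45.1 in RUNX1S291fs, 1.78 on CD45.1 in RUNX1S291fs/Ezh2Δ/Δ and 0.97 on WT. Its level on RUNX1S291fs/Ezh2Δ/Δ stood apart from the 7 other arrays, and WT had the lowest. Gfi1, a zinc finger repressor, gave 2.66 on Ezh2Δ/Δ, 2.19 on RUNX1S291fs, 5.72 on RUNX1S291fs/Ezh2Δ/Δ, -0.86 on RUNX1S291fs/Ezh2Δ/Δ-MDS, -1.88 on RUNX1S291fs/Ezh2Δ/Δ-MDS/ML, 4.49 on CD45.1 in RUNX1S291fs, 3.73 on CD45.1 in RUNX1S291fs/Ezh2Δ/Δ and 4.05 on WT. Here the wild-type arrays were close (SD 0.38, n = 3), with RUNX1S291fs/Ezh2Δ/Δ above them and the 4 other arrays below.

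Cebpa encodes C/EBPα. Its level was 0.79 on Ezh2Δ/Δ, 1.49 on RUNX1S291fs, 1.49 on RUNX1S291fs/Ezh2Δ/Δ, -0.78 on RUNX1S291fs/Ezh2Δ/Δ-MDS, 0.26 on RUNX1S291fs/Ezh2Δ/Δ-MDS/ML, 2.31 on CD45.1 in RUNX1S291fs, 1.86 on CD45.1 in RUNX1S291fs/Ezh2Δ/Δ and 1.16 on WT. Spi1 gave -0.07 on Ezh2Δ/Δ, 0.20 on RUNX1S291fs, 0.20 on RUNX1S291fs/Ezh2Δ/Δ, -2.03 on RUNX1S291fs/Ezh2Δ/Δ-MDS, -0.50 on RUNX1S291fs/Ezh2Δ/Δ-MDS/ML, -0.06 on CD45.1 in RUNX1S291fs, 0.09 on CD45.1 in RUNX1S291fs/Ezh2Δ/Δ and -0.42 on WT. The levels of both on RUNX1S291fs/Ezh2Δ/Δ and RUNX1S291fs were alike to 2 decimals, and both were lowest on RUNX1S291fs/Ezh2Δ/Δ-MDS. Across the 8 arrays, which share the 75th percentile scaling, the correlation with the mean centred level of the granule genes was 0.83 for Cebpe, 0.82 for Gfi1, 0.69 for Cebpa and 0.46 for Spi1.

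The RUNX1S291fs/Ezh2Δ/Δ array was set against WT, on the same slide, to ask what both lesions do before disease. Of the 9 genes 7 were at least 2-fold higher and 0 lower, where 10.6% of 14147 measured genes were that much higher and 7.94% that much lower. The difference was 5.99 for Elane (63.4-fold), 5.47 for Ms4a3, 3.80 for Prtn3, 3.31 for Ctsg and 2.16 for Mpo. Among the factors it was 5.72 for Cebpe (52.7-fold) and 1.67 for Gfi1, with 0.32 for Cebpa and 0.62 for Spi1. The member median was 3.31, against 0.10 over all genes. Set against all 3 wild-type arrays, 8 of 9 members lay above each of them (26.9% of genes) and 0 below (24.8%), the exception being Cebpa.

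Neither array with a single lesion had as many of these genes above WT. On Ezh2Δ/Δ against WT 0 of 9 genes were at least 2-fold higher (7.82% of genes) and 2 lower (3.85%), Gfi1 at -1.40 and Ms4a3 at -1.20, and 6 lay below all 3 wild-type arrays (32.3%) and 0 above (18.6%). On RUNX1S291fs against WT 3 were higher (8.57%), Ms4a3 at 2.04, Cebpe at 1.73 and Elane at 1.60, and Gfi1 was lower at -1.86 (5.79%). Against the 3 wild-type arrays together, RUNX1S291fs had 1 gene above (23.3%), Spi1, 1 below (30.4%), Gfi1, and 7 within. Without WT, 7 lay below both CD45.1 arrays, but the share of all genes below that narrower range was not computed, so the count cannot be judged. On RUNX1S291fs/Ezh2Δ/Δ, 7 genes were at least 2-fold higher than on RUNX1S291fs (8.08%) and 7 than on Ezh2Δ/Δ (10.9%), in both pairs all genes but Cebpa and Spi1, and 0 were lower (8.48% and 11%). These pairs cross slides, and the 2 share the RUNX1S291fs/Ezh2Δ/Δ array.

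The product of both genotypes in a limma model of all 8 arrays asks whether the effect of one lesion differs with the other. It was positive for 8 of 9 members and for 8090 of 13552 genes, with a median of 4.67 against 0.22 over all genes. The effect was 4.96 for Gfi1 (SE 0.86, limma adjusted p = 0.665), 6.89 for Ms4a3 (SE 2.52, adjusted p = 0.742) and 6.42 for Elane (SE 2.64, adjusted p = 0.764), and -0.06 for Spi1 (SE 1.00, adjusted p = 0.993). No member passed, with 0.0% of 13552 genes passing. At an unadjusted p under 0.05 were 5 of the 9 (6.52% of genes): Gfi1, Ms4a3, Cebpe, Prtn3 and Elane. With the slide as a fixed block the Elane effect was 10.72 (SE 2.10, limma adjusted p = 0.594). That fit tells slide 2 from slide 1 only through both CD45.1 arrays against WT. Slide and competitor cells therefore cannot be told apart in it.

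In the model without the product, the RUNX1S291fs term was positive for all 9 members and for 7319 of 13552 genes. The member median was 1.23, against 0.03 over all genes, led by Cebpe at 2.55 (SE 1.30) and Ms4a3 at 2.54 (SE 1.71). Each member had a limma adjusted p of 1.00, and 0.0148% of genes passed, while at an unadjusted p under 0.05 were 0 members and 5.95% of genes. This sign rested on RUNX1S291fs/Ezh2Δ/Δ: without that array, or without Ezh2Δ/Δ, the term was negative for Elane (-0.55), Mpo, Prtn3, Ctsg, Ms4a3, Cebpa and Gfi1 (-1.90), and 0.48 for Cebpe. The Ezh2 deletion term was positive for 5 members and negative for 4, from 0.88 for Cebpe (SE 1.30) to -0.70 for Ms4a3 (SE 1.71), each with limma adjusted p = 1.00 and 0.0% of genes passing (0 members and 2.37% of genes at an unadjusted p under 0.05).

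Most of the other promyelocyte stage genes were also higher on RUNX1S291fs/Ezh2Δ/Δ than on WT, as most were on wild-type CD45.1 in RUNX1S291fs. Of 17 such genes with a probe, 14 were at least 2-fold higher and 2 lower on RUNX1S291fs/Ezh2Δ/Δ than on WT, with a median of 3.14. All 17 were well above background on RUNX1S291fs/Ezh2Δ/Δ and 14 on WT, so some entered only through the former. Dmkn was higher by 6.86, Igsf6 by 6.18, Trem3 by 5.19 and Fcnb, a ficolin gene that was not above background on WT, by at least 4.96. Slc22a3 and Nkg7 were lower, at -2.16 and -1.32. Of 15 accessory genes of azurophil granules, such as lysosomal enzymes and chaperones, 6 were higher and 0 lower (median 0.88), among them the protease inhibitor gene Slpi at 3.53 and Cst7, a cystatin gene, at 3.20. Of 15 myeloid receptor genes 6 were higher, led by the Fc receptor genes Fcgr3 at 5.07 and Fcgr2b at 3.27, and 1 lower, Flt3 at -2.47. Of 26 other measured myeloid factors, 8 were higher, led by Cebpd, a further C/EBP gene, at 2.40, and 5 lower. On CD45.1 in RUNX1S291fs against WT, 11 of 14 measured promyelocyte genes were at least 2-fold higher and 1 lower (median 1.94). In that pair 7 of 15 azurophil accessory genes were higher and 1 lower (median 0.98).

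Genes of other cells also differed between these arrays, and their part in these differences was not tested. Of 17 measured late neutrophil granule genes, 16 were at least 2-fold higher on RUNX1S291fs/Ezh2Δ/Δ than on WT (Lcn2 6.88, Chil3 6.80). So were 10 of 11 mast cell and basophil genes (Hdc 5.70), 8 of 8 eosinophil genes and 5 of 9 monocyte and macrophage genes (F13a1 5.91). Of the late granule list, 17 genes were well above background on RUNX1S291fs/Ezh2Δ/Δ, 15 on Ezh2Δ/Δ and 10 on WT. Of the mast cell and basophil list, 11 were on RUNX1S291fs/Ezh2Δ/Δ and 8 on WT. Some genes of these lists therefore entered a pair with WT only through the other array, where they were high. The mean level of the late granule list was 0.58 on Ezh2Δ/Δ, -0.76 on RUNX1S291fs, 2.33 on RUNX1S291fs/Ezh2Δ/Δ, 1.53 on RUNX1S291fs/Ezh2Δ/Δ-MDS, -3.94 on RUNX1S291fs/Ezh2Δ/Δ-MDS/ML, -0.07 on CD45.1 in RUNX1S291fs, -2.69 on CD45.1 in RUNX1S291fs/Ezh2Δ/Δ and -2.59 on WT. The late granule list and the 5 granule genes of the members did not differ the same way in every pair. On Ezh2Δ/Δ against WT, 14 of 15 measured late granule genes were at least 2-fold higher, while 0 of the 5 member genes were. B lineage genes averaged 3.23 on Ezh2Δ/Δ, against -1.99 on WT.

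**Figure D2:**
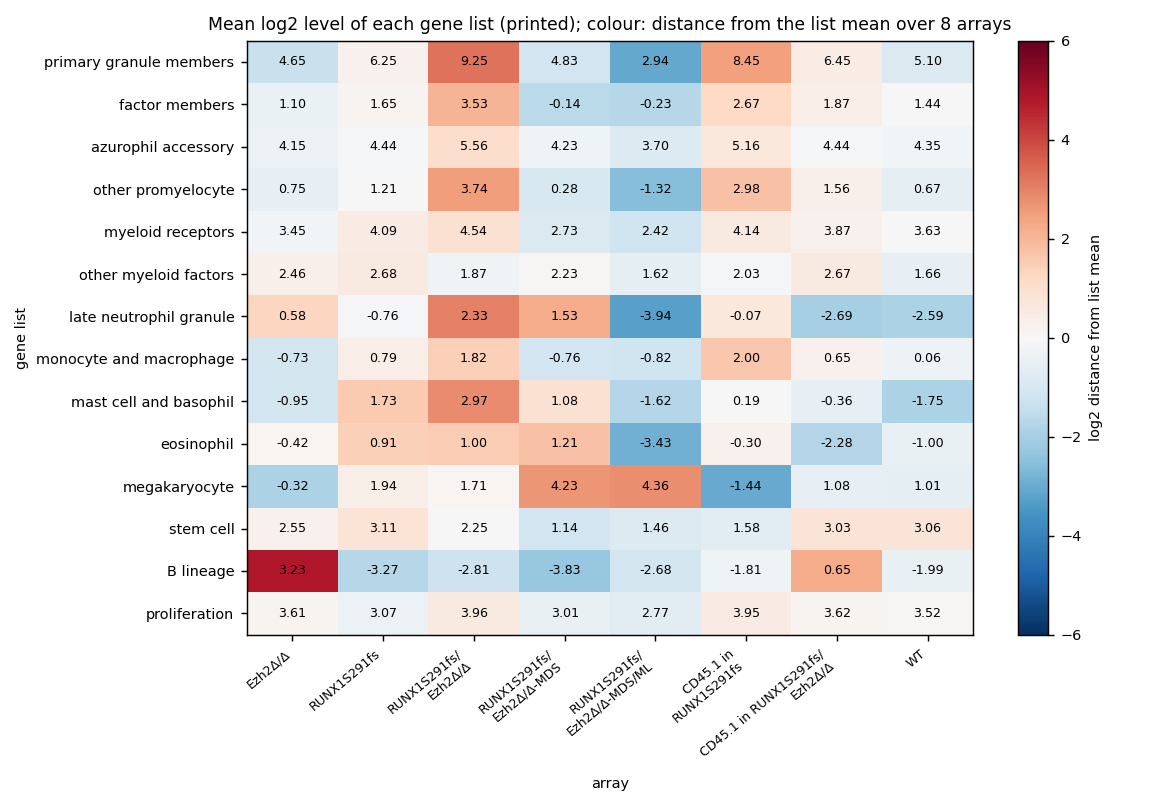
Mean log2 level (number in each cell) of 14 gene lists (rows) on the 8 arrays (columns), coloured by the log2 distance from the list's mean over the 8 arrays. The granule genes and the other promyelocyte genes are highest on RUNX1S291fs/Ezh2Δ/Δ (9.25 and 3.74) and lowest on RUNX1S291fs/Ezh2Δ/Δ-MDS/ML (2.94 and -1.32). The late neutrophil granule list is highest and lowest on the same arrays (2.33 and -3.94), and is at 1.53 on RUNX1S291fs/Ezh2Δ/Δ-MDS.

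Disease was addressed by setting each moribund array against RUNX1S291fs/Ezh2Δ/Δ. On RUNX1S291fs/Ezh2Δ/Δ-MDS, on the same slide, all 9 genes were at least 2-fold lower, where 20.3% of 14064 measured genes were lower and 10.6% higher by that much. Gfi1 had the largest difference, at -6.58, followed by Elane at -5.49 (45.0-fold), Ms4a3 at -5.36, Prtn3 at -4.94, Ctsg at -3.69, Cebpe at -3.58, Mpo at -2.62, Cebpa at -2.27 and Spi1 at -2.23. On RUNX1S291fs/Ezh2Δ/Δ-MDS/ML, on another slide, 8 were lower (15.2% of genes), at -7.67 for Elane, -7.60 for Gfi1, -7.08 for Prtn3, -6.46 for Ctsg, -5.84 for Ms4a3, -5.48 for Cebpe, -4.51 for Mpo and -1.23 for Cebpa. Spi1 was at -0.70, and 0 were higher (9.86%). These 2 pairs share RUNX1S291fs/Ezh2Δ/Δ, the array on which 8 of the 9 genes were highest.

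The moribund arrays were also set against the range of the 3 wild-type arrays. On RUNX1S291fs/Ezh2Δ/Δ-MDS 6 of 9 lay below all 3 (43.5% of genes) and 0 above (27.9%), and Elane, Ms4a3 and Cebpe lay within them. On RUNX1S291fs/Ezh2Δ/Δ-MDS/ML 8 lay below all 3 (36.9%) and 0 above (28.1%), and only Cebpe within, where Spi1 was also below by little. Between the 2 moribund arrays, RUNX1S291fs/Ezh2Δ/Δ-MDS/ML had 6 genes at least 2-fold lower than RUNX1S291fs/Ezh2Δ/Δ-MDS (9.04%), from Ctsg at -2.77 to Gfi1 at -1.02, and 2 higher (11.6%), Spi1 at 1.53 and Cebpa at 1.03. Ms4a3 differed by -0.48. Lineage genes differed between them too, 14 of 17 late neutrophil granule genes being at least 2-fold lower on RUNX1S291fs/Ezh2Δ/Δ-MDS/ML, with S100a8 at -8.13, and 8 of 8 eosinophil genes. Of the late granule list, 16 genes were well above background on RUNX1S291fs/Ezh2Δ/Δ-MDS and 8 on RUNX1S291fs/Ezh2Δ/Δ-MDS/ML. Of the eosinophil list, 8 were on RUNX1S291fs/Ezh2Δ/Δ-MDS and 5 on RUNX1S291fs/Ezh2Δ/Δ-MDS/ML. Some genes of both lists therefore entered only through RUNX1S291fs/Ezh2Δ/Δ-MDS, where they were high.

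The moribund stage term of the limma model was negative for all 9 members and for 7985 of 13552 genes. Its median was -3.53 over the members, against -0.13 over all genes. No member passed at an adjusted p under 0.05, where 1.84% of 13552 genes did, 37 higher (0.273%) and 213 lower (1.57%). Gfi1 came nearest at -5.60 (SE 1.22, limma adjusted p = 0.0822), and passed under 4 of the alternatives, with adjusted p = 0.0209 to 0.490 over all of them. Next in p were Prtn3 at -4.61 (SE 1.48, adjusted p = 0.217), Spi1 at -1.48 (SE 0.56, adjusted p = 0.299), Ctsg at -3.89 (SE 1.49, adjusted p = 0.305) and Cebpa at -1.45 (SE 0.59, adjusted p = 0.338). At an unadjusted p under 0.05 were these 5 of 9 (13.7% of genes). All of these effects but that of Spi1 (-1.52) were smaller or turned without the RUNX1S291fs/Ezh2Δ/Δ array. The term was then -2.13 for Gfi1, -1.34 for Prtn3, -1.13 for Ctsg, -0.76 for Cebpa and -0.41 for Mpo, 1.29 for Ms4a3 and 0.65 for Cebpe, and -0.16 for Elane, which had -4.65 (SE 2.07) with all arrays.

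Among the other myeloid lists, the stage term passed for Hk3, a hexokinase gene of the promyelocyte list, at -5.01 (SE 0.92, limma adjusted p = 0.0487), 1 of its 15 tested genes. It passed for 4 of 15 receptor genes, all lower: Cd34 at -3.70, Flt3 at -5.46, Il6ra at -4.14 and Cd33 at -2.24 (limma adjusted p = 0.0116 to 0.0328). No azurophil accessory gene, late granule gene or other myeloid factor of those lists passed. Of the stem cell list, Ly6a at -2.26 and Procr at -5.85 passed beside Cd34, and Clec1b, a platelet receptor gene, rose by 5.80 (SE 0.69, limma adjusted p = 0.0155). Of the lists for other lineages, Ctss, the cathepsin S gene of the monocyte and macrophage list, passed at -2.79 (SE 0.46, limma adjusted p = 0.0329), and Tpsb2, a tryptase gene of the mast cell and basophil list, at -4.08 (SE 0.74, limma adjusted p = 0.0476). Megakaryocyte genes averaged 1.71 on RUNX1S291fs/Ezh2Δ/Δ, 4.23 on RUNX1S291fs/Ezh2Δ/Δ-MDS and 4.36 on RUNX1S291fs/Ezh2Δ/Δ-MDS/ML. Whether cells of other types have a part in the lower granule gene levels was not tested.

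**Figure D3:**
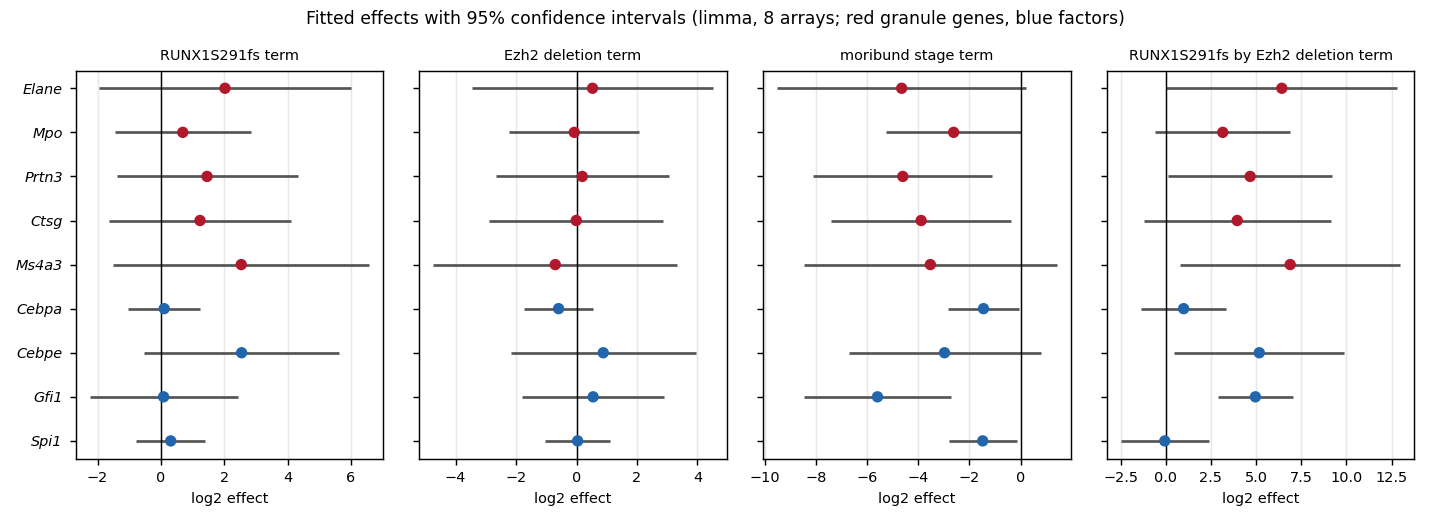
Fitted log2 effect of each term (point, x axis) with its 95% confidence interval (line) for the 9 genes (rows) in limma models of the 8 arrays, granule genes in red and factors in blue. For the stage term all 9 points lie below 0, with Gfi1 at -5.60, and for the product term 8 lie above 0.

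Wild-type CD45.1 cells gave the comparison within 1 kind of recipient. RUNX1S291fs cells and CD45.1 in RUNX1S291fs both came from RUNX1S291fs recipients and lay on the same slide. The labels do not say whether the same individual mice gave both pools. Of the 9 genes 7 were at least 2-fold lower on RUNX1S291fs (12.4% of 12946 genes) and 0 higher (8.74%), with Elane at -2.87, Ms4a3 at -2.68, Gfi1 at -2.30, Ctsg at -1.88, Prtn3 at -1.87, Mpo at -1.68 and Cebpe at -1.22. Beside WT the same array had higher Elane and Ms4a3, as given above, so the direction depends on the wild-type array used. On RUNX1S291fs/Ezh2Δ/Δ against CD45.1 in RUNX1S291fs/Ezh2Δ/Δ, a pair across slides, 7 were at least 2-fold higher (9.78% of genes), with Cebpe at 4.91, Elane at 4.02, Ms4a3 at 3.41, Prtn3 at 2.83, Ctsg at 2.26, Gfi1 at 1.99 and Mpo at 1.45, and 0 lower (9.42%).

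The wild-type arrays themselves were unlike. CD45.1 in RUNX1S291fs exceeded WT at least 2-fold for 7 of 9 genes (11.3% of genes) and lay that far below it for 0 (6.67%), with Ms4a3 at 4.71, Elane at 4.48 and Cebpe at 2.95. CD45.1 in RUNX1S291fs/Ezh2Δ/Δ exceeded WT for 3 (4.58%), Ms4a3 at 2.05, Elane at 1.97 and Ctsg at 1.05, and lay below it for 0 (2.3%). Between both CD45.1 arrays, on 1 slide, 6 genes were higher on CD45.1 in RUNX1S291fs (9.37%), all 5 granule genes and Cebpe, the largest being Ms4a3 at 2.66 and Elane at 2.51, and 0 were lower (6.78%). CD45.1 in RUNX1S291fs was also the dimmest array, with a 75th percentile of 185.7 signal units against 428.8 on CD45.1 in RUNX1S291fs/Ezh2Δ/Δ and 474.3 on WT. It had 9 of 10 megakaryocyte genes and 7 of 12 stem cell genes at least 2-fold lower than WT, and 8 of 9 measured monocyte and macrophage genes higher. The part of these lineage differences was not tested.

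**Figure D4:**
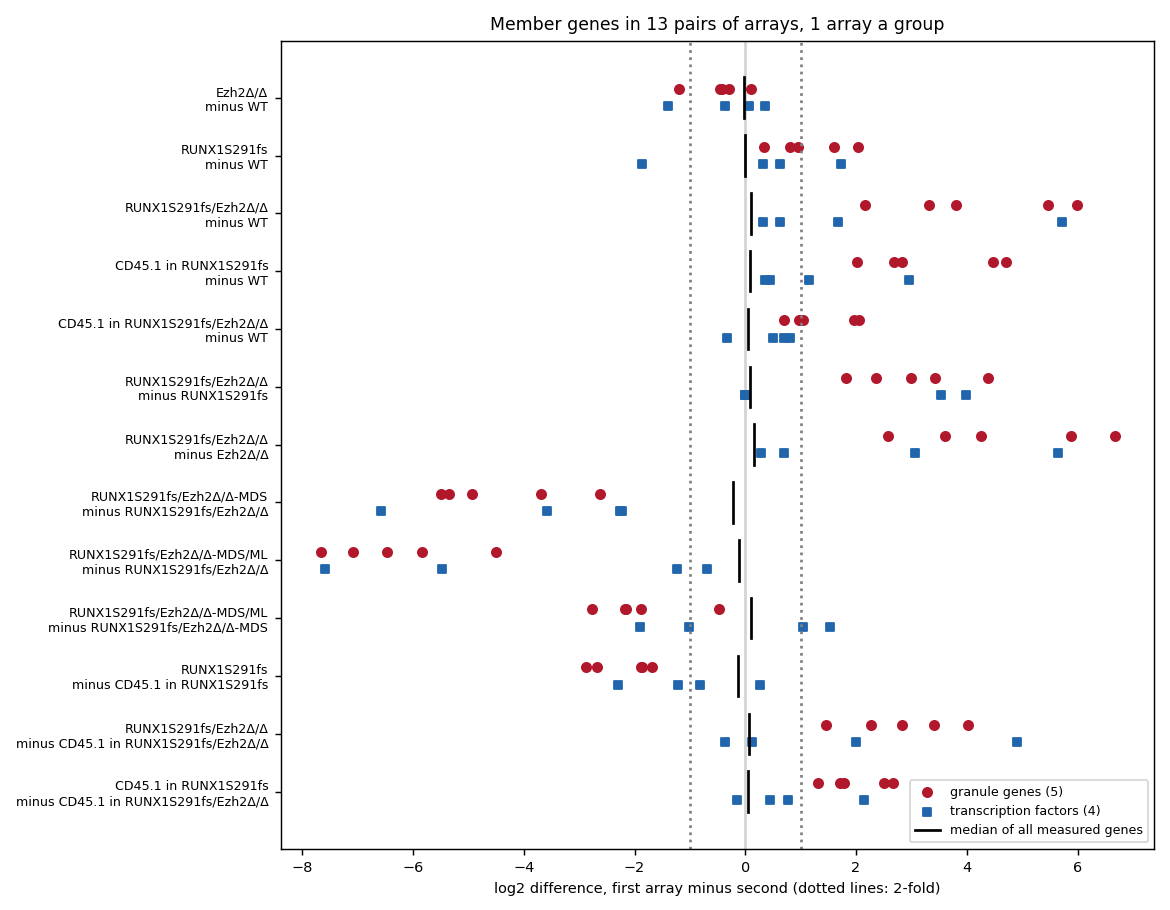
Log2 difference (x axis) of the granule genes (red circles) and transcription factors (blue squares) in 13 pairs of arrays (rows, first array minus second), with a black bar at the median of all measured genes and dotted lines at 2-fold. All 9 points lie beyond -1 for RUNX1S291fs/Ezh2Δ/Δ-MDS minus RUNX1S291fs/Ezh2Δ/Δ, and 7 lie beyond 1 for RUNX1S291fs/Ezh2Δ/Δ minus WT.

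Among 4118 genes well above background on all 8 arrays with an SD of at least 0.5, the 10 whose level had the highest Pearson correlation with the mean centred level of the granule genes were Dmkn and Rpia (0.99 each), Igsf6 and 1700020L24Rik (0.98 each), Flot2, Cldn15, Gyg, Rnpep, Bid and Ascl2 (0.97 each). The 8 points share their scaling and include the same wide RUNX1S291fs/Ezh2Δ/Δ to RUNX1S291fs/Ezh2Δ/Δ-MDS/ML range, so this is a description of these arrays. Dmkn had 6.18 on RUNX1S291fs/Ezh2Δ/Δ, -3.63 on RUNX1S291fs/Ezh2Δ/Δ-MDS/ML and -0.69 on WT. Rpia, a pentose phosphate enzyme gene, had a similar order in a narrower span, with 4.46 on RUNX1S291fs/Ezh2Δ/Δ, 2.54 on RUNX1S291fs/Ezh2Δ/Δ-MDS/ML and 3.08 on WT.

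Neighbours on the chromosome were compared because Elane and Prtn3 lie side by side on chromosome 10. Cfd, next to Elane and encoding complement factor D, was well above background on 6 arrays and highest on RUNX1S291fs/Ezh2Δ/Δ (-1.66) and CD45.1 in RUNX1S291fs (-1.80), against at most -3.78 on the 6 other arrays, WT included. Med16, beyond Cfd, lay between 9.65 and 10.63 on all 8 arrays, and Plppr3, on the far side of Prtn3, was at 6.17 on RUNX1S291fs/Ezh2Δ/Δ and 6.05 on WT, and lower on RUNX1S291fs/Ezh2Δ/Δ-MDS (3.62) and RUNX1S291fs/Ezh2Δ/Δ-MDS/ML (3.82) than on the 6 month 4 arrays, as Prtn3 was. Beside Ctsg on chromosome 14, Mcpt8, a basophil protease gene, gave 0.96 on Ezh2Δ/Δ, 2.35 on RUNX1S291fs, 3.25 on RUNX1S291fs/Ezh2Δ/Δ, 2.28 on RUNX1S291fs/Ezh2Δ/Δ-MDS, -1.84 on RUNX1S291fs/Ezh2Δ/Δ-MDS/ML, 3.81 on CD45.1 in RUNX1S291fs, 1.90 on CD45.1 in RUNX1S291fs/Ezh2Δ/Δ and 0.85 on WT. Beside Ms4a3 on chromosome 19, Ms4a2 and Oosp2 were well above background on only 3 and 6 arrays. Ms4a6d, beyond Ms4a2, was highest on RUNX1S291fs/Ezh2Δ/Δ (0.24), with -1.77 on RUNX1S291fs/Ezh2Δ/Δ-MDS and -4.16 on WT. Oosp1, beyond Oosp2, was at 2.08 on RUNX1S291fs/Ezh2Δ/Δ, 2.08 on RUNX1S291fs/Ezh2Δ/Δ-MDS and 2.06 on RUNX1S291fs/Ezh2Δ/Δ-MDS/ML. It did not share the lower moribund levels of Ms4a3. Lpo, the lactoperoxidase gene beside Mpo on chromosome 11, stayed between -3.11 and -1.90 and did not share the range of Mpo. Tspoap1, on the other side of Mpo, was highest on RUNX1S291fs/Ezh2Δ/Δ (2.12) and lowest on RUNX1S291fs/Ezh2Δ/Δ-MDS/ML (-1.18), as Mpo was, with 1.71 on RUNX1S291fs/Ezh2Δ/Δ-MDS, 1.65 on CD45.1 in RUNX1S291fs and -0.58 on WT.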

How the data were processed

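RNA of 8 samples was measured on 1-colour arrays. The array design was 028005 and the reader software Feature Extraction 10.7.1.1, per the file headers, and the processed signal is an intensity from which background had been subtracted. Per the labels' protocols, 20 ng of RNA was amplified and labelled with Cy3. The series table deposited by the authors holds linear signal, which, to within 0.01 log2 for at least 99.79% of probes, differed from the processed signal by 1 factor per array. It was used as an alternative only, and 0 of its columns were left out. No precision beyond the 8 arrays can be given, and 0 probes were saturated.

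Spots of a probe were averaged, giving 55681 probes, of which 27229 were named through transcript accessions in the RefSeq gene table of GRCm38.p6, used for names, gene order and promoters. The grid named mm9, whose coordinates were not used. For a gene with several probes the one with the highest mean was kept. Each level is the log2 of that signal after division by its array's 75th percentile. Members and gene lists were chosen with earlier results of these data known. Genes named beside the members are at most the 4 largest differences in either direction per list, among those at least 2-fold apart, the list genes past the threshold in the stage term, the 10 genes most like the granule genes, and chromosome neighbours, the last chosen after their values were seen.

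Pairs of single arrays have no test. They are described over genes that either array measured well above background, and a dim value below its array's lowest such signal was set to that signal, so that such differences are bounds. The models used limma 3.58.1 (R 4.3.3) and the 13552 genes that 3 or more arrays measured well above background, with terms for RUNX1S291fs, Ezh2 deletion and moribund stage, and once more with the product of both genotypes. Both CD45.1 arrays counted as wild type. P-values were adjusted by Benjamini-Hochberg over all these genes, with a threshold of 0.05. Residuals arise among the wild-type arrays, between both moribund arrays and from non-additive values, so p-values measure the spread between these samples only. The fit was also run on simulated data with independent, equal noise and an additive RUNX1S291fs effect alone. That check does not cover the sources of residuals just named.

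Alternatives were normexp background correction with an offset of 50 on the median signal, as the files used hold no mean signal column, scaling to the median, quantile normalization, the series table, other filters on dim probes, other probe rules, slide or recipient as a block, month 4 arrays alone, and leaving out each array.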

Additional observations from a re-analysis of the deposited data

How the results depend on the processing

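Of 333 recomputed counts of members, 323 stayed within 1.5 times. Other probe rules, other filters and the series table could hardly move a count. Each member has 1 probe, well above background on all 8 arrays, and the series table differs by about 1 factor per array. The 323 are therefore no measure of robustness. The counts that moved further are given here, with those term effects whose sign turned, none of which had passed the threshold. The cause was not tested, except that leaving out an array changes which arrays enter. The stage term had 1 member past the threshold, Gfi1, with normexp and with the recipient as a random block, and 0 to 1 when arrays were left out 1 at a time (1 without Ezh2Δ/Δ or RUNX1S291fs). With normexp, 0 members were at least 2-fold higher on RUNX1S291fs/Ezh2Δ/Δ-MDS/ML than on RUNX1S291fs/Ezh2Δ/Δ-MDS. Among alternatives added after the data were seen, RUNX1S291fs had 0 members above the wild-type range with median scaling, and 1 to 2 above (2 without CD45.1 in RUNX1S291fs) and 1 to 7 below it (7 without WT) when a wild-type array was left out. RUNX1S291fs/Ezh2Δ/Δ then had 0 to 1 below (1 without WT) and RUNX1S291fs/Ezh2Δ/Δ-MDS 0 to 1 above (1 without CD45.1 in RUNX1S291fs). Fewer wild-type arrays give a narrower range, and the share of all genes outside it was not computed.

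For the RUNX1S291fs term the Gfi1 effect was -0.24 with slide as a fixed block. For the Ezh2 deletion term Ctsg was 0.034 with normexp, 0.075 with slide and 0.015 with recipient as a random block, and Spi1 was -0.012 with normexp, -0.032 with median scaling and -0.022 with slide as a random block. The Spi1 product term was 0.020 with normexp, 0.32 with median scaling, 0.52 with slide as a fixed and 0.049 as a random block. With each array left out in turn, the RUNX1S291fs term ranged from -0.55 to 5.88 for Elane, -0.57 to 2.58 for Mpo, -0.41 to 4.26 for Prtn3, -0.35 to 3.61 for Ctsg, -0.22 to 6.67 for Ms4a3, -0.29 to 0.70 for Cebpa and -1.90 to 3.06 for Gfi1, and, with 1 sign throughout, from 0.48 to 5.65 for Cebpe. The Ezh2 deletion term ranged from -2.04 to 4.38 for Elane, -1.33 to 1.82 for Mpo, -1.68 to 2.99 for Prtn3, -1.59 to 2.36 for Ctsg, -3.46 to 3.43 for Ms4a3, -1.19 to 3.99 for Cebpe, -1.43 to 3.53 for Gfi1 and -0.047 to 0.098 for Spi1. The stage term ranged from -5.60 to 1.29 for Ms4a3 and -4.53 to 0.65 for Cebpe, and, with 1 sign throughout, from -6.58 to -0.16 for Elane, -3.57 to -0.41 for Mpo, -6.01 to -1.34 for Prtn3, -5.28 to -1.13 for Ctsg, -7.09 to -2.13 for Gfi1, -1.97 to -0.76 for Cebpa and -2.25 to -0.72 for Spi1, and the Spi1 product term from -0.17 to 0.087. The product term could not be fitted without Ezh2Δ/Δ, RUNX1S291fs or RUNX1S291fs/Ezh2Δ/Δ, or with the recipient as a random block. No paired analysis was possible by replicate number because every group has number 1 alone. The kind of recipient that 2 pairs of groups share entered as the random block above. Single arrays limit what any difference can show, as the 3 wild-type arrays differed from each other for most members.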
